A study of Homo sapiens with 12 samples.

Results

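The 10 genes described here encode enzymes of serine synthesis (PHGDH, PSAT1 and PSPH), of the cytosolic folate cycle (SHMT1 and MTHFD1), of the mitochondrial folate cycle (SHMT2, MTHFD2 and MTHFD1L) and of proline synthesis (ALDH18A1 and PYCR1). They were chosen by gene symbol from the 57353 rows of the count table, with earlier results of these data known. All 10 were among the 12998 genes abundant enough to test. The RNA came from MOLM-13, a human acute myeloid leukemia (AML) cell line that carries an internal tandem duplication of the receptor kinase FLT3 (FLT3-ITD). The cells were treated for 15 hr with vehicle (DMSO) or with 3 nM quizartinib (AC220), a FLT3 inhibitor, either in RPMI, the regular medium with fetal bovine serum and antibiotics, or in hBMSC-CM. hBMSC-CM is medium taken from cultures of HS-5, a human marrow stromal cell line, and mixed in equal parts with fresh RPMI, so the leukemia cells were not grown with stromal cells. Each of the 4 groups held 3 libraries, all from this 1 cell line and labelled wild type with no added genetic change. The study describes its replicates as biological, and the labels do not say how they were separated, so p-values measure the spread between these libraries.

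Serine is made from the glycolytic intermediate 3-phosphoglycerate in 3 steps, by PHGDH, PSAT1 and PSPH in turn. The serine hydroxymethyltransferases SHMT1 and SHMT2 move a carbon from serine to tetrahydrofolate and leave glycine, and the MTHFD enzymes carry that carbon between oxidation states for purine, thymidylate and methionine synthesis. Proline is made from glutamate, by ALDH18A1 (P5C synthase) and then by PYCR1, a mitochondrial reductase, and related enzymes. In proliferating leukemia cells these routes supply building blocks, and several of their genes are known targets of the transcription factors ATF4 and MYC.

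The libraries held 19966546 to 31546104 counts each, and 278 to 13246 of them fell on any 1 of the 10 genes, so counting error was small for each. Levels are given as CPM, counts scaled to a library of fixed size with TMM factors, that is, relative to the other RNAs of the same library. Such levels do not give amounts per cell. The study reports, from another experiment on these cells, that the RNA yield itself fell with quizartinib. In bulk RNA, fewer cells expressing a gene and less of its RNA per cell cannot be told apart. All 12 myeloid markers looked up had counts, though CD68 averaged only 0.0387 to 0.129 CPM over the groups. With quizartinib in RPMI 7 of the 10 tested were called higher (40.1% of all genes) and CD33, MPO and ITGAM lower (39.2%). In hBMSC-CM 6 were called higher (33.4%) and MPO lower (33.7%). The summed level of the 12, which hides these opposite moves, was 1130 to 1170 CPM with vehicle in RPMI, 2050 to 2100 CPM with quizartinib in RPMI, 1270 to 1280 CPM with vehicle in hBMSC-CM and 2270 to 2380 CPM with quizartinib in hBMSC-CM. Of 13 stromal markers, 6 (COL3A1, THY1, DCN, LUM, CCN2 and POSTN) were at 0 in each group, and the summed level ran over 3.66 to 4.17, 11.2 to 13.8, 3.11 to 3.87 and 6.35 to 7.15 CPM in the same order, with TAGLN leading in each group. Only 2, TAGLN and COL1A1, were abundant enough to test, and both were called higher with quizartinib in each medium (40.1% and 33.4% of all genes). COL1A1 averaged 0.172, 4.76, 0.215 and 1.02 CPM and TAGLN 2.48, 6.38, 2.3 and 4.53 CPM over the groups in that order. Of 10 lymphoid and erythroid markers 5, 3, 4 and 5 were at 0 in the same groups, and the sums were 15.6 to 18.1, 15.9 to 19.6, 20.3 to 23.2 and 26.3 to 30.6 CPM, nearly all from NKG7. The share of counts on mitochondrial genes also moved with treatment, from 0.683 to 0.79% with vehicle and 1.02 to 1.1% with quizartinib in RPMI, and from 0.458 to 0.613% and 0.683 to 0.947% in hBMSC-CM. The part of these shifts in the results was not tested.

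RefSeq promoter windows (GRCh38.p14, from 250 bases before to 50 bases after a start site) were found for 7 of the 10 genes, and not for PSPH, SHMT2 and PYCR1. They were searched on both strands for the ATF4 element TGATGNAAN, the E-box CACGTG that MYC and other basic helix-loop-helix factors can bind, and the E2F-type element TTTNGCGC. The matches are printed below with the motif in capitals, because of the windows read here only some of MTHFD1L, ALDH18A1 and MTHFD1 held any.
MTHFD1L ATF4 element, chr6:150866347-150866376, plus strand: ccgccggctcTGATGCAATcgcgccgggcg
MTHFD1L E-box, chr6:150866320-150866349, plus strand: cacgcccggctcCACGTGcgcagccggccg
ALDH18A1 E-box, chr10:95656830-95656859, minus strand: gggctggcccgcCACGTGgagcgctggctt
MTHFD1 E-box, chr14:64388326-64388355, plus strand: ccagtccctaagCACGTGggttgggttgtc
MTHFD1L, whose promoter is listed with several start sites, was the only one of the 7 genes with an ATF4 element. The 7 genes had 10 windows, and 3 of these held the element, against 3.61% of all 35116 windows. Those 3 are overlapping MTHFD1L windows that hold the same site, so they are not separate matches. The E-box of MTHFD1L lies before its ATF4 element without overlapping it, 154, 1 or 115 bases upstream of the start depending on the start site. From the same start sites the ATF4 element began 129 bases upstream, 24 bases downstream and 90 bases upstream. The E-box of ALDH18A1 began 136 bases upstream and that of MTHFD1 15 bases upstream. An E-box was in 5 of the 10 windows, with the MTHFD1L site again counted in each of its windows, and in 7.26% of all windows. The E2F-type element was in none of the 7 genes' windows and in 1.79% of all windows. A match describes the letters of a window and says nothing of binding in these cells. Lack of a match does not show that a gene lacks such an element, in other letters or outside the window.

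Quizartinib lowered the mRNA of all 10 enzymes in RPMI, where 39.2% of all genes tested were called lower, and in hBMSC-CM, where 33.7% were. In RPMI the falls ran from 1.26-fold for PYCR1 to 5.16-fold for PSAT1, and in hBMSC-CM from 1.49-fold for MTHFD2 to 3.31-fold for PSAT1. The set as a whole took 0.178 to 0.186% of all counts with vehicle in RPMI and 0.0839 to 0.0874% with quizartinib, against 0.189 to 0.198% and 0.119 to 0.122% in hBMSC-CM. For 7 of the 10 genes the fall was smaller in hBMSC-CM (26.1% of all genes had a positive difference between media), for PYCR1 it was larger (19.2% had a negative one), and for PHGDH and SHMT2 no difference was detected. Those shares are over all genes, lowered or not. Smaller falls in hBMSC-CM were common among lowered genes. The log2 change in hBMSC-CM divided by that in RPMI had a median of 0.493 over the 5096 genes lowered in RPMI, and of 0.587 over the set.

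**Figure D1:**
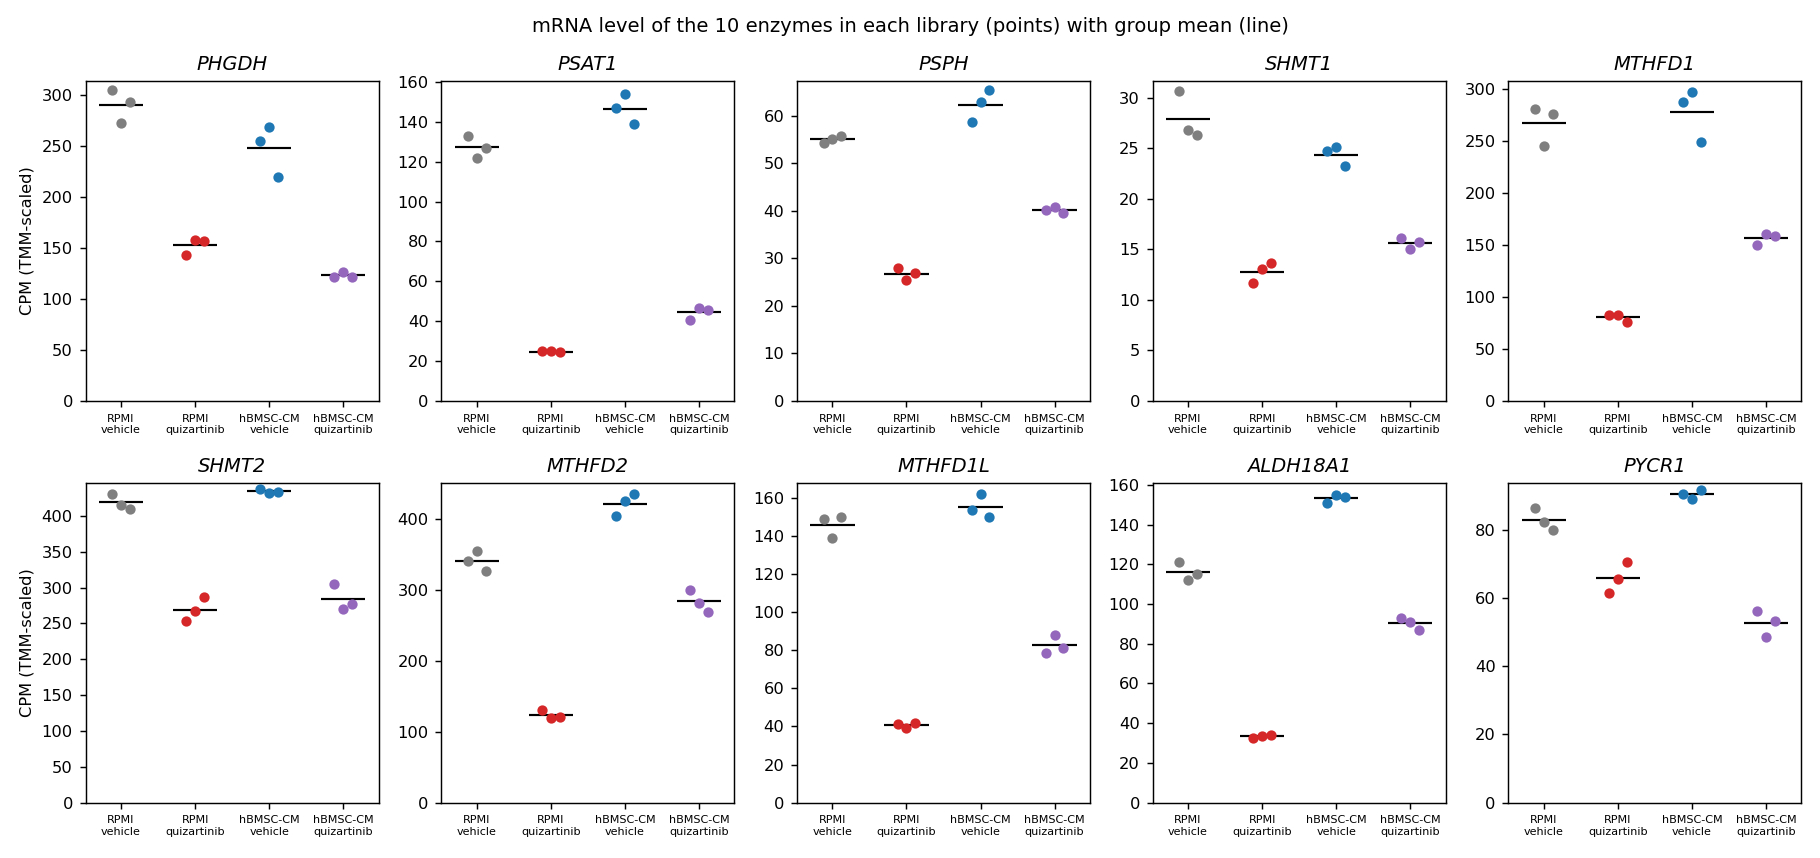
Level of each of the 10 enzymes (y axis, TMM-scaled CPM from 0) in each library (points) of the 4 groups (x axis), with the group mean as a line. In all 10 panels the quizartinib libraries of a medium sit below its vehicle libraries. For PSAT1, as an example, means are 127 and 24.7 CPM in RPMI and 147 and 44.4 CPM in hBMSC-CM.

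Among the serine synthesis genes, PHGDH, the first enzyme of the route (GRCh38 chr1:119648411-119744218), stood at 305, 273 and 294 CPM with vehicle in RPMI and at 143, 158 and 157 CPM with quizartinib. In hBMSC-CM it stood at 255, 269 and 220 CPM with vehicle and at 122, 127 and 122 CPM with quizartinib. The groups did not overlap in either medium, and the group levels kept the order RPMI vehicle, hBMSC-CM vehicle, RPMI quizartinib, hBMSC-CM quizartinib. In RPMI the log2 level of PHGDH fell by 0.93 (95% confidence interval -1.06 to -0.80, adjusted p = 8.14e-12, from the quasi-likelihood test of edgeR, adjusted by Benjamini-Hochberg over all genes tested, as is each adjusted p of a gene below). It fell by 1.00 in hBMSC-CM (adjusted p = 1.16e-11). The difference between the media was -0.07 (-0.25 to 0.11, adjusted p = 0.525), so the falls were not told apart.

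PSAT1, the aminotransferase of the second step (chr9:78297125-78330093), stood at 133, 122 and 127 CPM with vehicle and at 24.8, 25 and 24.3 CPM with quizartinib in RPMI. In hBMSC-CM its levels were 147, 154 and 139 CPM with vehicle and 40.8, 46.8 and 45.6 CPM with quizartinib. PSAT1 had the largest fall of the 10 genes in both media, and its 3 quizartinib libraries in RPMI differed from each other by less than 1 CPM. On the log2 scale it fell by 2.37 in RPMI (-2.49 to -2.25, adjusted p = 4.85e-19) and by 1.73 in hBMSC-CM (-1.84 to -1.61, adjusted p = 3.88e-16). The fall was smaller in hBMSC-CM by 0.64 (0.48 to 0.80, adjusted p = 8.22e-07). PSPH, the phosphatase that releases serine (chr7:56011051-56051604), stood at 54.2, 55.1 and 55.7 CPM with vehicle and at 28, 25.5 and 26.8 CPM with quizartinib in RPMI, and at 58.6, 62.9 and 65.3 CPM and 40.2, 40.7 and 39.6 CPM in hBMSC-CM. Its groups did not overlap in either medium, with a fall of 2.05-fold in RPMI (adjusted p = 1.64e-13) and of 1.55-fold in hBMSC-CM (adjusted p = 1.11e-09), and the log2 difference between media was 0.41 (adjusted p = 0.00015). The pseudogene PSPHP1 had a mean of 3.28 CPM, and how reads shared with PSPH were assigned is not given in the sources used here.

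Of the cytosolic one-carbon genes, SHMT1 (chr17:18327860-18363563) converts serine to glycine in the cytosol. It stood at 30.7, 26.8 and 26.3 CPM with vehicle and at 11.7, 13.1 and 13.6 CPM with quizartinib in RPMI, and at 24.7, 25.1 and 23.2 CPM and 16.1, 15 and 15.7 CPM in hBMSC-CM. The quizartinib libraries lay below the vehicle libraries throughout. SHMT1 fell 2.19-fold in RPMI (adjusted p = 9.52e-12) and 1.56-fold in hBMSC-CM (adjusted p = 1.95e-07), and the log2 difference between media was 0.49 (0.27 to 0.71, adjusted p = 0.000728). An exon of SMCR8, at 83.7 CPM on the opposite strand, overlaps SHMT1 by 197 bases, and the strand setting of the counting is not given in the sources used here. MTHFD1, the trifunctional cytosolic folate enzyme (chr14:64388031-64463457), stood at 281, 245 and 276 CPM with vehicle and at 82.5, 82.3 and 76.4 CPM with quizartinib in RPMI. In hBMSC-CM it stood at 288, 297 and 249 CPM and at 150, 161 and 159 CPM. MTHFD1 was thus alike in the vehicle groups of the media and set apart by medium only with quizartinib. It fell 3.32-fold in RPMI (adjusted p = 3.69e-16) and 1.78-fold in hBMSC-CM (adjusted p = 1.76e-10), and the log2 difference between media was 0.90 (0.72 to 1.08, adjusted p = 2.92e-08). ZBTB25, at 20.7 CPM on the opposite strand, overlaps MTHFD1 by 178 bases of exon. Noncoding RNA genes on that strand overlap MTHFD1 by 1556 and 186 bases. They were not found in the count table, so their levels are not known. Opposite-strand genes not found there also overlap SHMT2 by 352, MTHFD2 by 295 and PYCR1 by 450 bases. SLC4A5, at 0.0467 CPM, overlaps MTHFD2 by 1324 bases.

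The mitochondrial one-carbon genes went apart from each other. SHMT2, the mitochondrial partner of SHMT1 (chr12:57229573-57234935), stood at 431, 415 and 410 CPM with vehicle and at 253, 267 and 287 CPM with quizartinib in RPMI, and at 437, 432 and 433 CPM and 305, 270 and 277 CPM in hBMSC-CM. Its levels depended on the drug in both media, and its quizartinib libraries of the media overlapped. SHMT2 fell 1.56-fold in RPMI (adjusted p = 1.56e-10) and 1.53-fold in hBMSC-CM (adjusted p = 9.15e-10), with a log2 difference between media of 0.03 (-0.12 to 0.17, adjusted p = 0.784). MTHFD2, the dehydrogenase and cyclohydrolase of the mitochondrial route (chr2:74186172-74217565), stood at 341, 355 and 326 CPM with vehicle and at 130, 119 and 121 CPM with quizartinib in RPMI. In hBMSC-CM it stood at 404, 425 and 435 CPM and at 300, 282 and 269 CPM. MTHFD2 with quizartinib in hBMSC-CM was closer to vehicle than to quizartinib in RPMI. It fell 2.76-fold in RPMI (adjusted p = 1.47e-16) and 1.49-fold in hBMSC-CM (adjusted p = 1.9e-09), and the log2 difference between media was 0.90 (0.75 to 1.04, adjusted p = 1.13e-09).

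MTHFD1L, the mitochondrial formate-releasing synthetase (chr6:150865679-151101887) whose promoter sequences are printed above, stood at 149, 139 and 150 CPM with vehicle and at 41.2, 39.2 and 41.8 CPM with quizartinib in RPMI. In hBMSC-CM it stood at 154, 162 and 150 CPM and at 78.7, 87.9 and 81.4 CPM. The groups were separate in each medium and the vehicle groups of the media overlapped, as for MTHFD1. MTHFD1L fell 3.60-fold in RPMI (adjusted p = 4.69e-18) and 1.88-fold in hBMSC-CM (adjusted p = 1.3e-12), and the log2 difference between media was 0.94 (0.79 to 1.08, adjusted p = 6.4e-10).

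The falls of the proline genes differed between media in opposite directions. ALDH18A1, which makes the first committed intermediate from glutamate (chr10:95605941-95656711), stood at 121, 112 and 115 CPM with vehicle and at 32.5, 33.7 and 34.1 CPM with quizartinib in RPMI. In hBMSC-CM it stood at 151, 155 and 154 CPM and at 93.1, 91 and 87 CPM. ALDH18A1 showed the largest gap between media of the set, with a fall of 3.48-fold in RPMI (adjusted p = 1.27e-18) and of 1.69-fold in hBMSC-CM (adjusted p = 2.44e-12), a log2 difference of 1.04 (0.91 to 1.17, adjusted p = 2.06e-11). PYCR1, the reductase of the last step (chr17:81932384-81942412), stood at 86.4, 82.1 and 79.8 CPM with vehicle and at 61.3, 65.6 and 70.4 CPM with quizartinib in RPMI, and at 90.4, 89.1 and 91.6 CPM and 56.1, 48.5 and 53.3 CPM in hBMSC-CM. PYCR1 had the smallest fall of the set in RPMI, and of the 4 groups its level was lowest with quizartinib in hBMSC-CM. It fell 1.26-fold in RPMI (adjusted p = 1.09e-05) and 1.71-fold in hBMSC-CM (adjusted p = 1.46e-10), and the log2 difference between media was -0.44 (-0.61 to -0.28, adjusted p = 0.000105), the only negative one called. MYADML2, at 2.23 CPM on the same strand, overlaps PYCR1 by 408 bases of exon.

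Set against all genes tested, all 10 enzymes were called lower with quizartinib in RPMI (39.2% of all genes). The fall was at least 2-fold for 7 of them (11.8% of all genes): PSAT1, PSPH, SHMT1, MTHFD1, MTHFD2, MTHFD1L and ALDH18A1. In all 10 the quizartinib libraries lay below the vehicle libraries, which held for 40.1% of all genes. The median log2 change of the 10 was -1.30, against 0.02 over all genes tested. The 10 were chosen with earlier results of these data known, so these shares and medians describe them and do not test them as a set. In hBMSC-CM all 10 were again called lower (33.7% of all genes) with no overlap of libraries (34.4% of all genes). There 2 of them, PSAT1 and, just at the threshold, PHGDH, fell at least 2-fold (2.03% of all genes), and the median of the 10 was -0.77 against 0.01. The log2 change in hBMSC-CM divided by that in RPMI was 0.389 for MTHFD2, 0.423 for ALDH18A1, 0.479 for MTHFD1, 0.493 for MTHFD1L, 0.566 for SHMT1, 0.608 for PSPH, 0.729 for PSAT1, 0.958 for SHMT2, 1.08 for PHGDH and 2.31 for PYCR1. Its median over the set was 0.587, against 0.493 over the 5096 genes lowered in RPMI. The difference between media was called positive for 7 of the 10 (26.1% of all genes) and negative for PYCR1 (19.2% of all genes).

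**Figure D2:**
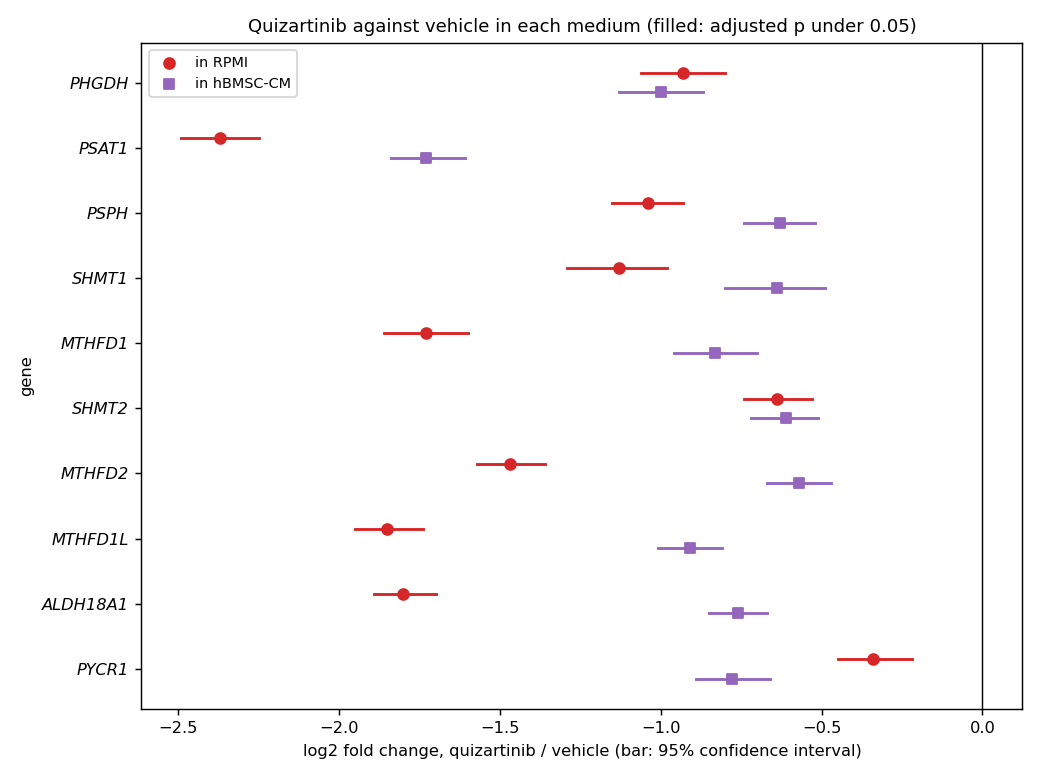
Log2 fold change with quizartinib (x axis) of each enzyme (y axis) in RPMI (circles) and in hBMSC-CM (squares), with 95% confidence intervals as bars, each point from 3 against 3 libraries. All 20 points lie left of 0. The interval of PSAT1 in RPMI, at -2.37, is farthest left, and only for PYCR1 does the hBMSC-CM interval lie wholly left of that for RPMI.

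For 8 of the enzymes the difference between media depended on the drug, by the test of the difference given above, and over all genes too the median size of the log2 difference was 0.32 with quizartinib and 0.14 with vehicle. With quizartinib in both arms, hBMSC-CM had the higher level for 7 enzymes (35.5% of all genes were called higher): ALDH18A1 2.71-fold, MTHFD2 2.30-fold, MTHFD1L 2.03-fold, MTHFD1 1.95-fold, PSAT1 1.79-fold, PSPH 1.5-fold and SHMT1 1.22-fold. PHGDH was 1.23-fold lower (adjusted p = 0.000215) and PYCR1 1.25-fold lower (adjusted p = 4.8e-05), where 34.3% of all genes were called lower. SHMT2 differed by 0.08 on the log2 scale (-0.02 to 0.18, adjusted p = 0.161) and was called higher, by 0.16, only when genes with low counts were kept in the fit (adjusted p = 0.00339).

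With vehicle in both arms the same genes were nearer to each other. ALDH18A1 was higher in hBMSC-CM by 1.32-fold (adjusted p = 3.2e-07), MTHFD2 by 1.24-fold (adjusted p = 6.16e-05), PSAT1 by 1.15-fold (adjusted p = 0.00373) and PSPH by 1.13-fold (adjusted p = 0.0103), where 16.6% of all genes were called higher. PHGDH was 1.17-fold lower (adjusted p = 0.00587) and SHMT1 1.15-fold lower (adjusted p = 0.0294), where 15.5% of all genes were called lower. MTHFD1 differed by 0.06 (-0.07 to 0.18), SHMT2 by 0.05 (-0.05 to 0.16), MTHFD1L by 0.08 (-0.01 to 0.18) and PYCR1 by 0.12 (0.01 to 0.24) on the log2 scale, and none of these was called. The vehicle libraries of SHMT2 and of PYCR1 did not overlap between media. Lack of overlap is not a call, and its share over all genes was not taken for this comparison. The SHMT1 call was lost without RPMI vehicle replicate 1 (log2 difference -0.12, adjusted p = 0.231) or without hBMSC-CM vehicle replicate 1 (-0.21, adjusted p = 0.0536), 2 (-0.22, adjusted p = 0.0501) or 3 (-0.17, adjusted p = 0.0946), and with DESeq2 (adjusted p = 0.0528) or limma-trend (adjusted p = 0.0503), though not with limma-voom. The PSPH call was lost without hBMSC-CM vehicle replicate 3 (0.14, adjusted p = 0.0523), and PYCR1 passed when only the 2 vehicle groups were fitted (adjusted p = 0.0439).

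**Figure D3:**
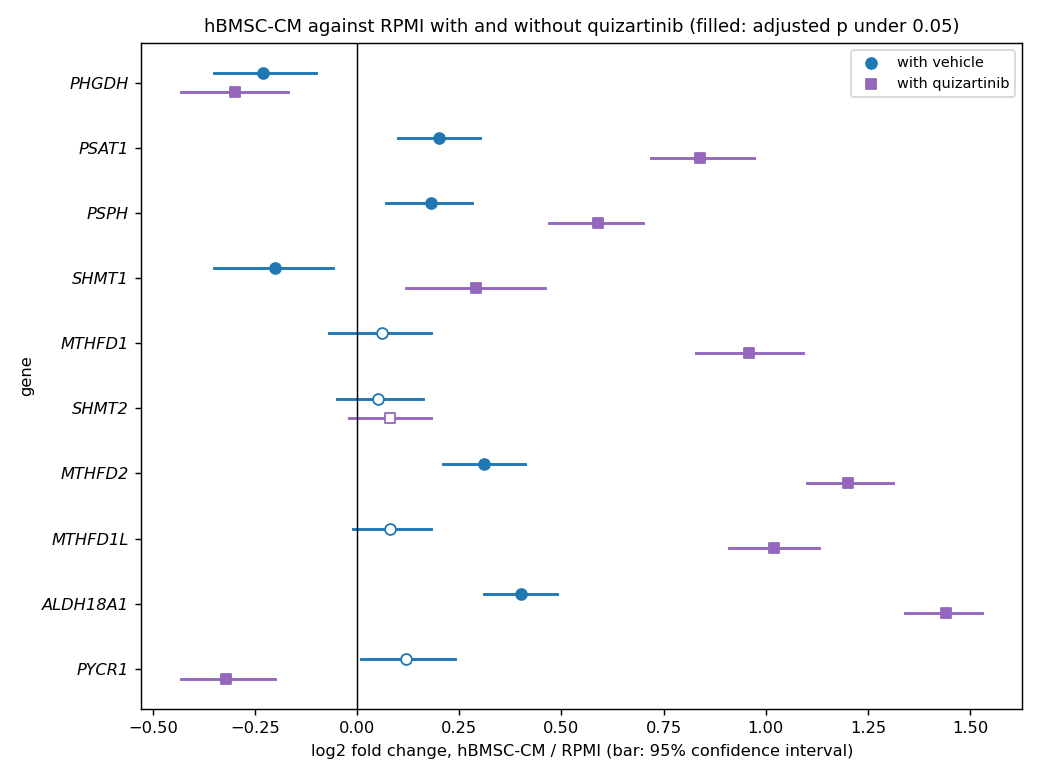
Log2 difference of each enzyme between hBMSC-CM and RPMI (x axis, positive when higher in hBMSC-CM) with vehicle (circles) and with quizartinib (squares), with 95% confidence intervals as bars and open symbols where the adjusted p was not under 0.05. With quizartinib ALDH18A1 is farthest right, at 1.44, and PHGDH and PYCR1 lie left of 0, at -0.30 and -0.32.

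Relative to the other RNAs, the mRNA level of all 10 enzymes was still lower with quizartinib in hBMSC-CM than with vehicle in RPMI (31.6% of all genes were called lower). The gap was smallest for MTHFD2, 1.2-fold (adjusted p = 8.52e-05), and ALDH18A1, 1.28-fold (adjusted p = 2.59e-07). It was largest for PSAT1, 2.88-fold (adjusted p = 1.52e-15), and PHGDH, 2.34-fold (adjusted p = 3.59e-13), and the median log2 difference was -0.71. These comparisons share libraries, so they are not independent of each other. The order of the 4 groups by mean level was hBMSC-CM vehicle, RPMI vehicle, hBMSC-CM quizartinib and RPMI quizartinib for PSAT1, PSPH, MTHFD1, SHMT2, MTHFD2, MTHFD1L and ALDH18A1. SHMT1 had the vehicle groups in the other order, and PYCR1 the quizartinib groups. Neighbours in that order whose libraries overlapped were the vehicle groups for MTHFD1 and MTHFD1L and the quizartinib groups for SHMT2. The vehicle groups of SHMT2 and PYCR1 did not overlap and were not called different.

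Per kilobase of transcript, SHMT2 had the highest level in each group, 194 ± 5.09 CPM per kb with vehicle and 125 ± 7.92 with quizartinib in RPMI (SD, n = 3), and 201 ± 1.23 and 132 ± 8.59 in hBMSC-CM. PHGDH came next by mean, at 156 ± 8.71, 81.8 ± 4.49, 133 ± 13.5 and 66.3 ± 1.55 CPM per kb in the same order. With quizartinib in hBMSC-CM, MTHFD2 stood at 64.4 ± 3.54 CPM per kb, so there PHGDH and MTHFD2 did not differ beyond their spread. SHMT1 was lowest in each group, at 11.1 ± 0.953, 5.07 ± 0.39, 9.63 ± 0.396 and 6.17 ± 0.22 CPM per kb in the same order. PSAT1 and PSPH, which follow PHGDH in the route, stood at 57.7 ± 2.5 and 27.9 ± 0.382 CPM per kb with vehicle in RPMI, and at 11.2 ± 0.163 and 13.6 ± 0.633 with quizartinib, so that in RPMI PSAT1 was the more abundant with vehicle and PSPH with quizartinib. In hBMSC-CM they stood at 66.5 ± 3.4 and 31.5 ± 1.72 CPM per kb with vehicle and at 20.1 ± 1.44 and 20.3 ± 0.279 with quizartinib, where they did not differ beyond their spread. ALDH18A1 and PYCR1 were close with vehicle in RPMI, at 34.6 ± 1.37 and 36.5 ± 1.48 CPM per kb, and apart with quizartinib, at 9.97 ± 0.248 and 29.0 ± 2.01. In hBMSC-CM with quizartinib they stood at 27.0 ± 0.925 and 23.2 ± 1.69.

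The balance of mitochondrial to cytosolic isozyme was followed as a ratio of raw counts within a library, without correction for length. SHMT2/SHMT1 was 14, 15.5 and 15.6 with vehicle and 21.7, 20.3 and 21.1 with quizartinib in RPMI, and 17.7, 17.2 and 18.7 with vehicle and 18.9, 18 and 17.7 with quizartinib in hBMSC-CM. The libraries were thus apart in RPMI (log2 difference 0.49) and overlapping in hBMSC-CM (0.03), but 3 against 3 libraries cannot give a p below 0.1 in a 2-sided exact permutation test, and that is the p for RPMI. Over both media, with labels exchanged within each medium, quizartinib raised SHMT2/SHMT1 by 0.26 on the log2 scale (exact permutation p = 0.03, adjusted over 3 ratios p = 0.045). MTHFD2/MTHFD1 was 1.21, 1.45 and 1.18 with vehicle and 1.57, 1.45 and 1.58 with quizartinib in RPMI, and 1.41, 1.43 and 1.75 with vehicle and 2, 1.75 and 1.7 with quizartinib in hBMSC-CM. It rose by 0.26 over both media (exact permutation p = 0.02, adjusted p = 0.045), although the libraries met or overlapped in each medium. MTHFD1L/MTHFD1 averaged 0.549 ± 0.0181, 0.507 ± 0.0363, 0.56 ± 0.0363 and 0.527 ± 0.0164 (SD, n = 3) over the groups in the same order and differed by -0.10 over both media (exact permutation p = 0.055). Both calls were lost when the ratios were taken from CPM + 1 (0.21 and 0.25, adjusted exact permutation p = 0.065 each). They were also lost (adjusted exact permutation p = 0.0525 to 0.0825) without RPMI quizartinib replicate 1, with log2 changes of 0.22 and 0.25, without hBMSC-CM vehicle replicate 2, with 0.27 and 0.24, or without hBMSC-CM quizartinib replicate 1, with 0.27 and 0.23. MTHFD1L/MTHFD1 passed, at -0.12, without RPMI quizartinib replicate 3 (exact permutation, adjusted p = 0.035) or hBMSC-CM vehicle replicate 1 (adjusted p = 0.045).

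**Figure D4:**
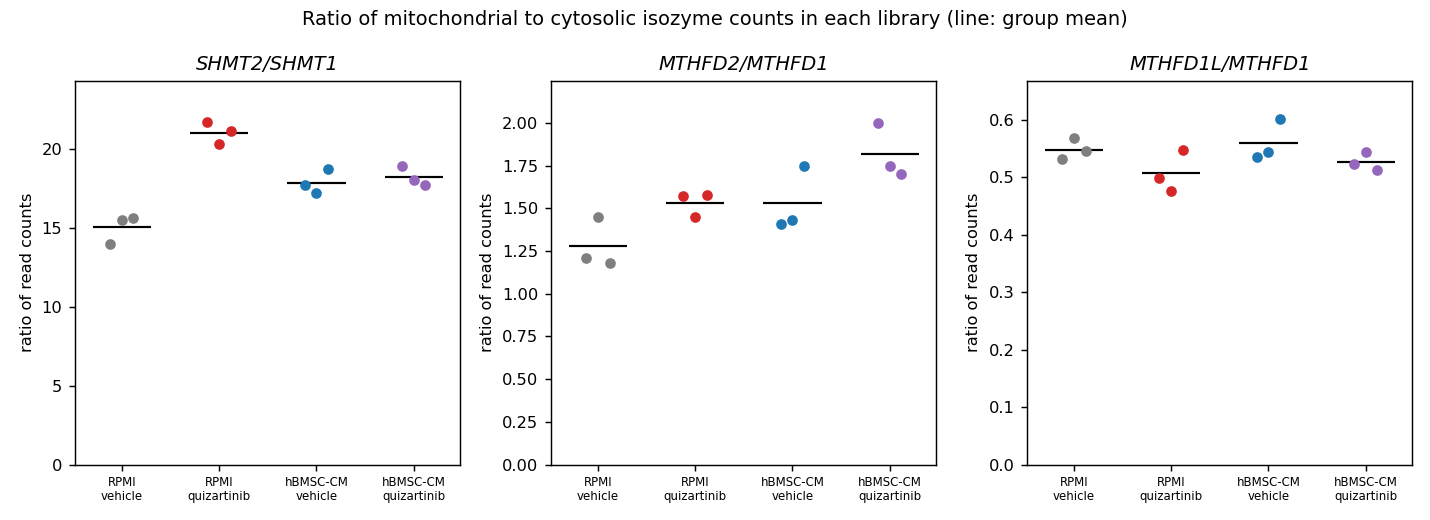
Ratio of raw counts of a mitochondrial to a cytosolic folate enzyme (y axis from 0) in each library (points) of the 4 groups (x axis), with the group mean as a line. SHMT2/SHMT1 is highest with quizartinib in RPMI, at a mean of 21, and lowest with vehicle in RPMI, at 15, and MTHFD2/MTHFD1 is highest with quizartinib in hBMSC-CM, at 1.82.

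Across the 12 libraries, log2 CPM of the 45 pairs of enzymes had Pearson r between 0.471, for MTHFD2 with PYCR1, and 0.996, for MTHFD1 with MTHFD1L and for MTHFD2 with ALDH18A1, with a median of 0.907. These r describe profiles over libraries that share the same 4 groups and treatments. Against the mean of the other 9 enzymes r was 0.996 for PSAT1 and lowest for PYCR1, at 0.722, and PHGDH, at 0.815. Of 9278 other genes that averaged 10 CPM or more, those most like the mean profile of the set were DDX39A (r = 0.999), an RNA helicase, MSN (0.998), the membrane linker moesin, and COLGALT1, RANGAP1 and SNRPC (each 0.997). The gene most like each enzyme was FOXM1, a mitotic transcription factor, for PHGDH (0.991), MAPRE1 for PSAT1 (0.998), JPT1 for PSPH (0.997), MEPCE for SHMT1 (0.994), PDXK, pyridoxal kinase, for MTHFD1 (0.998), TUBB6 for SHMT2 (0.993), RPL7L1 for MTHFD2 (0.998), ECE1 for MTHFD1L (0.998), SLC16A1, a monocarboxylate transporter, for ALDH18A1 (0.999), and ATF4 for PYCR1 (0.981).

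Genes around these routes were read from 5 lists, which were also chosen with earlier results of these data known. Of 13 tested genes of serine and glycine use, 8 fell and 4 rose with quizartinib in RPMI, and of 11 tested folate carriers and enzymes 8 fell and 2 rose. Among 11 genes of the methionine cycle and transsulfuration 7 fell and 2 rose, among 11 glutamate and proline genes 9 fell and 1 rose, and among 14 genes of the ATF4 response, ATF4 included, 9 fell and 2 rose. Over all genes tested 39.2% fell and 40.1% rose. The list medians were -0.32, -0.90, -0.71, -0.62 and -0.44 on the log2 scale, against -1.30 for the 10 enzymes and 0.02 for all genes tested. In hBMSC-CM the 5 lists had 6, 8, 7, 9 and 10 genes lower and 3, 3, 2, 1 and 0 higher (33.7% and 33.4% of all genes), with medians of -0.13, -0.54, -0.36, -0.31 and -0.45.

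SLC19A1, the reduced folate carrier, averaged 43.8 ± 2.17 CPM with vehicle and 7.19 ± 0.832 CPM with quizartinib in RPMI (SD, n = 3), and 57.2 ± 1.61 and 29.9 ± 1.2 CPM in hBMSC-CM. It fell by 2.6 in RPMI (adjusted p = 6.74e-18) and 0.94 in hBMSC-CM (adjusted p = 2.66e-11) on the log2 scale. SFXN1, which carries serine into mitochondria, averaged 117 ± 1.37 and 28 ± 1.01 CPM in RPMI and 136 ± 2.24 and 78.5 ± 3.8 CPM in hBMSC-CM, a fall of 2.05 in RPMI (adjusted p = 2.55e-19) and 0.79 in hBMSC-CM (adjusted p = 1.78e-12). In the other direction, SFXN3, a related carrier, rose by 0.49 in RPMI and 0.30 in hBMSC-CM.

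Of the other folate genes, ALDH1L2, the mitochondrial formyltetrahydrofolate dehydrogenase, fell by 1.67 in RPMI and 0.86 in hBMSC-CM, and TYMS, thymidylate synthase, fell by 1.53 and 0.99. In the methionine cycle MAT2A, which makes S-adenosylmethionine, fell by 2.03 in RPMI, from 320 ± 20.9 to 78.1 ± 6.93 CPM (adjusted p = 6.76e-17), and by 0.44 in hBMSC-CM, from 346 ± 21.1 to 255 ± 17.6 CPM (adjusted p = 3.07e-06). MTAP, of methionine salvage, fell by 1.44 and 0.58, and MTRR, which reactivates methionine synthase, by 1.10 and 0.42. AHCYL2 rose by 0.59 and 0.31, and MAT2B rose by 0.20 in RPMI and differed by 0.01 in hBMSC-CM (adjusted p = 0.904). GCAT and PTDSS2, from the list of serine and glycine genes, fell by 0.45 and 0.39 in RPMI and by 0.40 and 0.22 in hBMSC-CM. SPTLC1 rose by 0.09 in RPMI (adjusted p = 0.0451) and differed by -0.03 in hBMSC-CM (adjusted p = 0.535).

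The isozymes closest to the set did not move as one. MTHFD2L, the second mitochondrial dehydrogenase, averaged 11.4 ± 0.733 and 12.2 ± 1.04 CPM in RPMI (log2 difference 0.11, adjusted p = 0.27) and 10.8 ± 0.826 and 12.8 ± 0.672 CPM in hBMSC-CM, where it rose by 0.25 (adjusted p = 0.0155), against the falls of MTHFD2. PYCR3, the cytosolic proline reductase, averaged 19.4 ± 0.573 and 3.58 ± 0.326 CPM in RPMI and 24.2 ± 1.48 and 13.7 ± 1.17 CPM in hBMSC-CM, and fell by 2.45 (adjusted p = 1.09e-15) and 0.82 (adjusted p = 5.91e-09). PYCR1, as given above, fell by 0.34 and 0.78, so that the fall was larger in RPMI for PYCR3 and larger in hBMSC-CM for PYCR1. LONP1, the mitochondrial protease of this list, fell by 1.35 and 0.76.

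ATF4, the gene found above to be most like PYCR1, averaged 452 ± 3.8 CPM with vehicle and 338 ± 9.07 CPM with quizartinib in RPMI, and 491 ± 16.3 and 288 ± 17.3 CPM in hBMSC-CM. It fell by 0.42 in RPMI (adjusted p = 2.97e-08) and by 0.77 in hBMSC-CM (adjusted p = 6.71e-12), and the difference between media was -0.35 (adjusted p = 0.000147), the same direction as for PYCR1 and the opposite of PSAT1, PSPH, SHMT1, MTHFD1, MTHFD2, MTHFD1L and ALDH18A1. These are mRNA levels, and the amount or activity of ATF4 protein was not read here. Among the ATF4 response genes STC2 fell by 3.54 and 1.83, TRIB3 by 1.95 and 1.41 and DDIT4 by 0.59 and 0.28 in RPMI and hBMSC-CM. VLDLR rose by 1.42 in RPMI and differed by 0.06 in hBMSC-CM (adjusted p = 0.314).

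**Figure D5:**
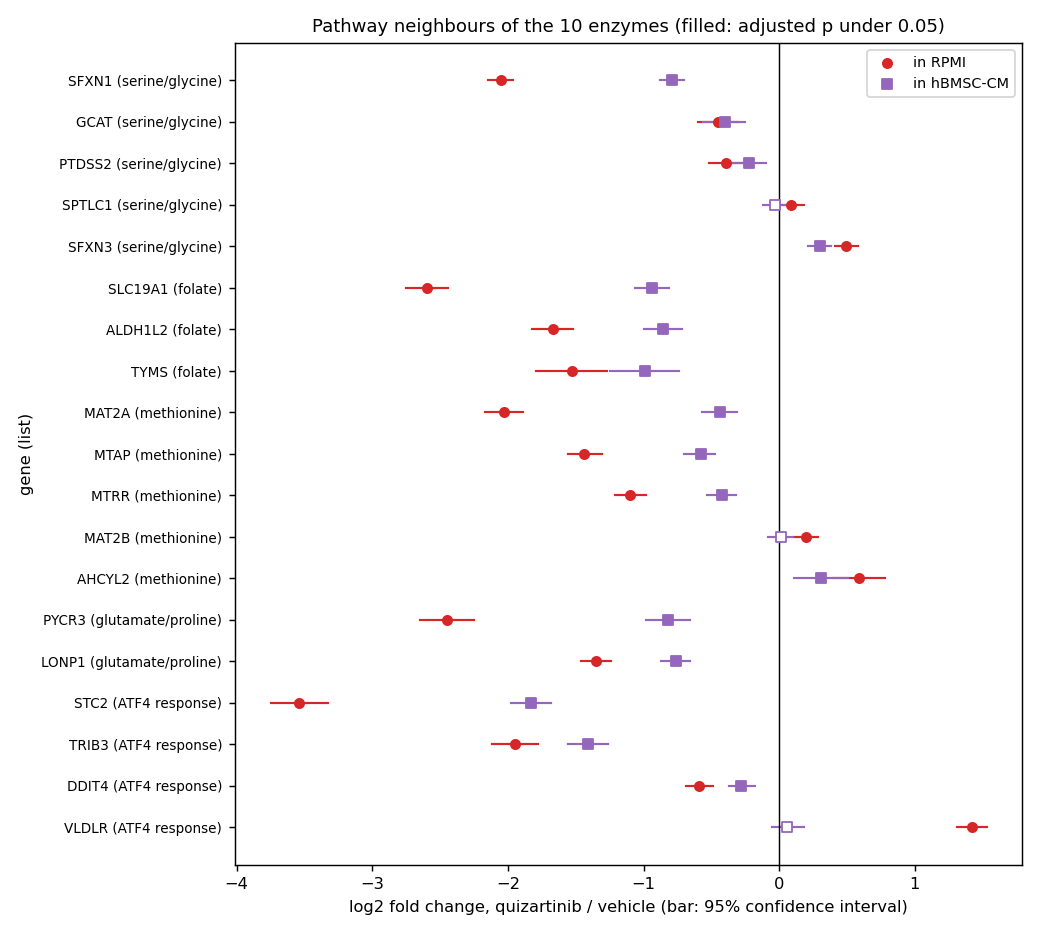
Log2 fold change with quizartinib (x axis) of genes around the 10 enzymes (y axis, with the list of each) in RPMI (circles) and in hBMSC-CM (squares), with 95% confidence intervals as bars and open symbols where the adjusted p was not under 0.05. STC2 is farthest left, at -3.54 in RPMI, and SFXN3 lies right of 0 in both media, at 0.49 and 0.30.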

How the data were processed

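Poly-A-selected RNA of 12 MOLM-13 libraries was sequenced. The authors trimmed adapters and removed short reads with BBDuk, aligned reads to hg38 and, per the labels, counted them per gene with STAR 2.6.0a, and deposited the raw counts with 1 row per gene name. The strand setting of the counting is not given in the sources used here.

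Groups came from the sample titles. From the deposited counts, genes with a mean raw count and a mean CPM of at least 1 (12998 genes) were fitted in R 4.3.3 with edgeR 4.0.16 (quasi-likelihood test, TMM factors, 4 group means, all 12 libraries). Calls were made at a Benjamini-Hochberg adjusted p under 0.05 over all genes tested. The difference between media is the quizartinib effect in hBMSC-CM minus that in RPMI. No library was a copy of another of its own group, with a chi-square per gene of 2.47 to 9.39 over the 12 pairs within groups. Pairs from different groups were not checked in this way. A count of 3, taken as the floor, corresponded to 0.0951 to 0.15 CPM, and intervals cover the spread between these libraries. Genes around the set were named by a fixed rule: in each list the largest called rises, falls and differences between media with a mean of at least 10 CPM, plus MTHFD2L, PYCR3, ATF4 and the genes most like the set. A few genes of that rule are not reported here, and list counts include them. Alternatives were other scalings, no filter, DESeq2 1.42.0, limma 3.58.1, only the groups compared, a replicate block and leaving out each library. The scripts were tested on simulated data. The 10 genes and the lists were chosen with earlier results of these data known. Gene positions and the length of each gene's canonical transcript came from GENCODE annotation of GRCh38, and promoter windows from RefSeq.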

Additional observations from a re-analysis of the deposited data

Results flagged for a closer look

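The quizartinib effect differed between media, by the edgeR test of the difference itself (effect in hBMSC-CM minus effect in RPMI, log2, 3 libraries a group), for 8 of the 10 enzymes and for 45.2% of all genes tested. It was less negative in hBMSC-CM by 0.64 for PSAT1, 0.41 for PSPH, 0.49 for SHMT1, 0.90 for MTHFD1, 0.90 for MTHFD2, 0.94 for MTHFD1L and 1.04 for ALDH18A1, and more negative for PYCR1, at -0.44.

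The same test called 16 of the named genes of the 5 lists. Genes were named in part because this test called them, so that count is not a share of the lists. The lists, in the order given above, held 13, 11, 11, 11 and 14 tested genes. Of these 4, 6, 4, 5 and 4 had a positive difference called (26.1% of all genes) and 2, 1, 1, 0 and 4 a negative one (19.2%). The difference was 1.26 for SFXN1, 1.66 for SLC19A1, 0.81 for ALDH1L2, 0.54 for TYMS, 1.59 for MAT2A, 0.85 for MTAP, 0.67 for MTRR, 1.63 for PYCR3, 0.59 for LONP1, 1.71 for STC2, 0.54 for TRIB3 and 0.31 for DDIT4. It was -0.20 for SFXN3, -0.19 for MAT2B, -1.35 for VLDLR and -0.35 for ATF4. SFXN3 rose less in hBMSC-CM than in RPMI, MAT2B and VLDLR rose in RPMI with no call in hBMSC-CM, and ATF4 fell more in hBMSC-CM.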

How the results depend on the processing

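Across other scalings, tests, filters and the replicate block, 586 of 590 gene values kept direction and side of the threshold, and 711 of 720 did with 1 library left out. The exceptions concern SHMT1, PSPH, SHMT2, PYCR1 and MTHFD1, and those that changed a call are given in the report. Those that changed sign were uncalled values near 0. The SHMT2 difference between media ran from -0.03 to 0.07 with 1 library left out, and was -0.0078 without RPMI vehicle replicate 1, -0.03 without RPMI quizartinib replicate 1 and -0.02 without hBMSC-CM quizartinib replicate 1. The MTHFD1 difference between media with vehicle ran from -0.00061, without RPMI vehicle replicate 2, to 0.13. SHMT2/SHMT1 with quizartinib in hBMSC-CM was -0.0018 from CPM + 1 and -0.00024 to 0.06 with 1 library left out, and MTHFD1L/MTHFD1 between media with vehicle -0.02 to 0.06. Over both media, CPM + 1 gave 0.21 for SHMT2/SHMT1 and 0.25 for MTHFD2/MTHFD1 (exact permutation, adjusted p = 0.065 each). With 1 library left out SHMT2/SHMT1 was 0.21 to 0.30, MTHFD2/MTHFD1 0.23 to 0.30 and MTHFD1L/MTHFD1 -0.12 to -0.08. DESeq2 called 2 folate genes between media with vehicle, where edgeR called 5. Leaving out 1 library left 4 to 6 enzymes called between media with vehicle, and 10, 10, 9, 10 and 8 in the other comparisons as before. The cause of these changes was not tested.

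Upper-quartile scaling moved the median of all genes in RPMI by 0.11, and none of the 10 enzymes changed direction. The share of higher genes among those called went from 49.8% to 62.8% (library size only) or 60% (upper quartile) with quizartinib in hBMSC-CM, from 49.2% to 62.1% (library size only) for quizartinib in hBMSC-CM against vehicle in RPMI, and from 57.6% to 70.6% (no filter) for the difference between media.

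Same-numbered replicates did not deviate together (r -0.227 to 0.0979 over 18 pairs), and 0 of 12 libraries correlated best with its own number. With the replicate block all 10 enzymes were still called in RPMI and in hBMSC-CM, and over all genes 10224 in place of 10307 in RPMI. The numbers of enzymes called were the same with the block in each comparison.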
